A study of Mus musculus with 15 samples.

Results

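Matrix metalloproteinases (MMPs) are zinc-dependent proteases that cut collagens, laminins, elastin and other matrix proteins, and tissue inhibitors of metalloproteinases (TIMPs) bind and block them. Most MMPs are secreted as inactive proenzymes and are activated outside the cell by other proteases, so a transcript level is not an enzyme activity. In the pancreas they are known for remodeling of the stroma during pancreatitis and cancer and come from fibroblasts, macrophages, neutrophils and epithelial cells. The 10 genes described here were chosen by name, with earlier results of these data known. The shares of all genes given beside them are therefore no test of the set. They are the gelatinases Mmp2 and Mmp9, the membrane-anchored Mmp14, the stromelysin Mmp3, the collagenase Mmp13 and the macrophage elastase Mmp12. The others are the matrilysin Mmp7, Mmp11, and the inhibitors Timp1 and Timp2. All 10 are among the 15175 genes listed in the 3 count tables, of which the HC and KMC tables list 49585 genes each.

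Total RNA from C57BL/6 pancreas was sequenced in 15 libraries of 6 groups, each library made from the pooled pancreata of 3 mice. MC libraries came from 2-month-old mice labelled HPK1-M46 transgenic (M46 is a kinase-dead HPK1, the kinase encoded by Map4k1; n = 3) and were set against libraries labelled B control of the same age (MC controls; n = 3). HC libraries came from 4-month-old HPK1/B mice (n = 3) and were set against 4-month-old WT mice (HC controls; n = 2). Both of these experiments used cerulein, a secretagogue that induces pancreatitis, with harvest a day after treatment. KMC libraries came from 9-month-old mice with M46 (n = 2) and were set against 15-month-old mice without it (KC; n = 2); all 4 share a further allele, the labels name no cerulein for them, and the study's text describes them as PDAC samples. B stands for Bac-cre, a tamoxifen-inducible Cre driven by the acinar elastase I promoter, so that HPK1 or M46 is switched on in acinar cells and not in the stromal and immune cells that make many MMPs. Age differs together with genotype between KMC and KC, so that their parts cannot be told apart. No source states whether the pools of a group were drawn from separate litters, and p-values measure the spread between pools.

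The libraries held 29766575 to 38745907 counts. At this depth a count of 0 allows up to 3 counts, or 0.0357 to 0.204 CPM (counts scaled to a common library size with the TMM normalization factors), for counting error only. Map4k1 was at 2.34 to 4.14 CPM in MC controls and 6.79 to 8.32 in MC, and at 0.544 and 1.55 CPM in KC against 5.92 and 11.4 in KMC. It went against the label in the HC table, with 5.05 to 7.92 CPM in the libraries labelled HC and 11.5 and 15.4 in their controls. Acinar marker transcripts made up 36.9% to 55.2% of counts in the MC table and 24.3% to 68.3% in the KMC table, but 5.42% to 8.42% in the HC table, where stomach markers reached 1464 to 7328 CPM. Libraries of 1 group also stood apart: MC control 2 was above the other MC controls for all 10 genes, and KMC 2 was above KMC 1 for all 10. Xist, expressed from the inactive X chromosome of females, was at 405 and 306 CPM in KMC against 0.680 and 0.348 in KC, and at 0.761 CPM in HC 3 against 579 CPM or more in the other 4 libraries of its table. Sex therefore went with genotype in KMC and KC and cannot be told apart from it.

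A group of 4 members lies together. In the GRCm38 annotation, Mmp13 (chr9:7272514-7283331), Mmp12 (chr9:7344381-7369499), Mmp3 (chr9:7445822-7455975) and Mmp7 (chr9:7692090-7699585) sit on the plus strand in a cluster of 10 Mmp genes that spans 427.1 kb of chromosome 9. The other 6 members are on separate chromosomes: Mmp2 on 8, Mmp9 on 2, Mmp11 on 10, Mmp14 on 14, Timp2 on 11 and Timp1 on X. Timp1 lies inside Syn1 on the opposite strand, with 0 shared exon bases, and Syn1 was at 4.80 CPM or less in the 15 libraries. Mmp11 shares 155 exon bases, 5.6% of its exon length, with Chchd10 on the opposite strand, Mmp7 shares 123 with the antisense gene AV064505, and Mmp12 shares 157 with Mmp1b. AV064505 and Mmp1b had 0 or 1 count in every library of the HC and KMC tables. The strand setting of the counting is not given in the sources used here, so reads in the Mmp11 overlap cannot be assigned with certainty.

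RefSeq promoter windows (GRCm38.p6) were matched for 8 of the 10 genes, Mmp2 and Mmp9 being the exceptions, with separate start sites for Mmp7 and Mmp12. The AP-1 site, written TGANTCA and its own reverse complement in form, is known as the element through which Fos and Jun proteins act on many Mmp promoters. In the 250 bases before the start it was present in 4 of 10 member promoters, all 4 of them in the chromosome 9 cluster, and in 6.75% of the 32851 promoter windows in the table. The 120 bases directly before the start are shown for these 4, because they are the members that share both a position and this motif; capitals mark the AP-1 match.
Mmp13: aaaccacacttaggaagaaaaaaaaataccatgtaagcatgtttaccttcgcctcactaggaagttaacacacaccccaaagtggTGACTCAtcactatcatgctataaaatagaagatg
Mmp3: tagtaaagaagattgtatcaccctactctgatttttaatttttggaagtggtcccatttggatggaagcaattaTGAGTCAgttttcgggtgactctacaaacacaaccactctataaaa
Mmp7: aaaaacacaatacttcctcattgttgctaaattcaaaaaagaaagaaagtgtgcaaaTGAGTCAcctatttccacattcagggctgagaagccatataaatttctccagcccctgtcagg
Mmp12: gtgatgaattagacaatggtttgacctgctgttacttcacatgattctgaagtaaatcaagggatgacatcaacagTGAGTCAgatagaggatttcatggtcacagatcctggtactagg
These are the plus-strand windows chr9:7272394-7272513 (Mmp13), chr9:7445702-7445821 (Mmp3), chr9:7691970-7692089 (Mmp7, its upstream start) and chr9:7347254-7347373 (Mmp12, its downstream start, inside the annotated gene). Counted from the start, the match ran from -35 to -29 in Mmp13, -46 to -40 in Mmp3, -63 to -57 in Mmp7 and -44 to -38 in Mmp12. The ETS-type PEA3 motif AGGAAG, searched on both strands, was in the 250-base windows of 6 of the 8 matched genes (Mmp3, Mmp7, Mmp12, Mmp13, Mmp14 and Timp1) and in 29.5% of all windows. A TATAAA box on the gene's strand was in those of Mmp3, Mmp7 and Mmp13 and in 7.59% of all. Nothing here measures binding to these letters.

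**Figure D1:**
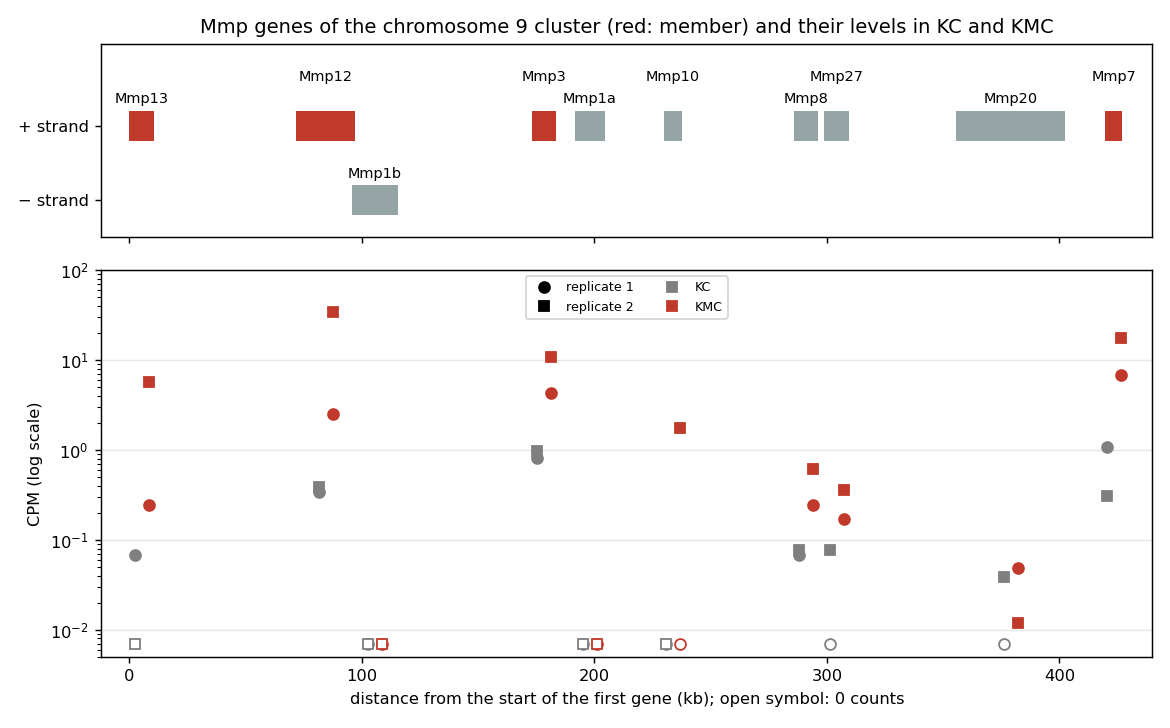
Top, the 10 Mmp genes of the chromosome 9 cluster by distance in kb from the start of Mmp13, with the 4 members in red. Bottom, the CPM of each gene in the 2 KC (gray) and 2 KMC (red) libraries on a log axis, with open symbols for 0 counts; the 4 members were higher in both KMC libraries, while Mmp1a and Mmp1b had 0 counts in all 4.

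The question of the KMC and KC comparison is what kinase-dead HPK1 changes on the background that KMC and KC share. All 10 genes were higher in both KMC libraries than in both KC libraries. The log2 fold changes ran from 1.21 for Timp2 to 6.70 for Mmp13, with a median of 3.38 beside 0.03 over the 15733 genes tested. None passed the edgeR test, with adjusted p from 0.0796 to 0.163 and unadjusted p under 0.05 for 10 of 10, while DESeq2 called all 10. Over all genes, edgeR called 3, or 0.0191%, unadjusted p was under 0.05 with KMC higher for 16.1%, and DESeq2 called 1455 as higher, or 9.25%. The log2 fold change was above 0 for 51.3% of all genes. Groups did not overlap, with KMC higher, for 34.4% of all genes and for 10 of the 10 members.

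Mmp2, the gelatinase made mainly by fibroblasts, was at 16.3 and 23.1 CPM in KC and at 76.7 and 171 CPM in KMC, a log2 fold change of 2.65 (SE 0.51, adjusted p = 0.0796 by edgeR). Mmp14, which activates proMMP2 at the cell surface, was at 14.01 and 22.1 CPM in KC and 64.9 and 186 in KMC, a log2 fold change of 2.79 (SE 0.59). Both genes were higher in KMC 1 than in either KC library, and highest in KMC 2. Mmp9, the gelatinase stored by neutrophils, was at 0.476 and 3.06 CPM in KC and 5.43 and 35.2 in KMC, so that the KC libraries lay below both KMC libraries but far from each other.

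Mmp3, a stromelysin that also activates other proMMPs, was at 0.816 and 0.967 CPM in KC and at 4.32 and 10.8 in KMC. Mmp11, expressed by stromal cells next to carcinoma, was at 0.816 and 1.39 CPM in KC and at 5.52 and 16.6 in KMC. For these and for Mmp7 the KC libraries stayed at or below 1.39 CPM. Mmp7, an epithelial MMP, was at 1.09 and 0.309 CPM in KC and at 6.78 and 17.7 in KMC, a log2 fold change of 4.23 (SE 0.74, adjusted p = 0.0796 by edgeR).

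The widest gaps were in the macrophage elastase and the collagenase. Mmp12 was at 0.340 and 0.387 CPM in KC and at 2.50 and 33.8 in KMC, a log2 fold change of 5.62 (SE 1.23). Mmp13 had 1 and 0 counts in KC and 10 and 474 in KMC, where the 0 allows up to 0.116 CPM in KC 2. The depth-corrected ratio of its summed counts was 157, with a 95% exact counting interval of 28.1 to 6229 that leaves out the spread between libraries. Almost all of it came from KMC 2, since KMC 1 held 0.246 CPM against 5.64.

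The inhibitors differed from each other. Timp1, an inducible inhibitor, was at 2.109 and 2.166 CPM in KC and at 4.57 and 44.95 in KMC, a log2 fold change of 3.53 with an SE of 0.95. Timp2, which besides inhibiting MMPs helps MMP14 capture proMMP2, was at 58.6 and 82.5 CPM in KC and at 132 and 195 in KMC. Its log2 fold change of 1.21 (SE 0.46) was the lowest of the 10, and its adjusted p of 0.163 by edgeR the highest.

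KMC 2 carried much of the size of these differences. Without it, the members' log2 fold changes ran from 0.91 to 3.37 with a median of 2.13. Without KMC 1, the median was 4.06. Both fits leave KMC with 1 library, which is assumed to vary as the KC libraries do. Scaling by library size alone moved the median of all genes from 0.03 to 1.47. It gave 10 called members with a median of 4.94, which is relative to that shift. With that scaling edgeR called 4715 of 15733 genes, 4695 of them as higher.

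Immune and fibroblast markers were higher in KMC as well, by value. All 8 macrophage markers were higher in KMC (summed level 129 and 141 CPM in KC, 451 and 1149 in KMC), as were all 7 fibroblast markers (194 and 252 against 471 and 679) and the 5 tested of 6 neutrophil markers (1.63 and 5.07 against 18.0 and 37.7). The neutrophil marker Ly6g had 0 counts in both KC libraries and 3 and 4 in KMC, and it had 0 or 1 in the HC table. Acinar markers took 59.7% and 68.3% of counts in KC and 24.3% and 48.7% in KMC. Of the acinar markers 30 of 31 tested were lower in KMC, as were 3 of 4 islet markers (1414 and 2850 CPM summed in KC, 669 and 1319 in KMC), and all 3 tested adipocyte and all 3 tested mast cell markers had a log2 fold change below 0 with overlapping libraries. The study describes these as PDAC samples. In such bulk RNA, fewer cells of a type, less RNA per cell and how much tumor was sampled cannot be told apart. The part of these markers in the result was not tested. Counted per 100 fibroblast marker counts, a scale chosen after the data were seen, Mmp2 was at 8.39 and 9.17 in KC and at 16.3 and 25.2 in KMC. On the same scale Mmp14 was at 7.23 and 8.77 in KC against 13.8 and 27.4 in KMC, while Timp2 was at 30.2 and 32.7 against 27.9 and 28.7. Relative to the fibroblast markers, Mmp2 and Mmp14 were thus higher in both KMC libraries and Timp2 was slightly lower, while Timp1 overlapped (1.09 and 0.859 in KC, 0.970 and 6.62 in KMC). Mmp9 per 100 neutrophil marker counts overlapped too, at 29.2 and 60.3 in KC and 30.2 and 93.4 in KMC. Mmp12 per 100 macrophage marker counts was at 0.264 and 0.274 in KC and at 0.555 and 2.94 in KMC.

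**Figure D2:**
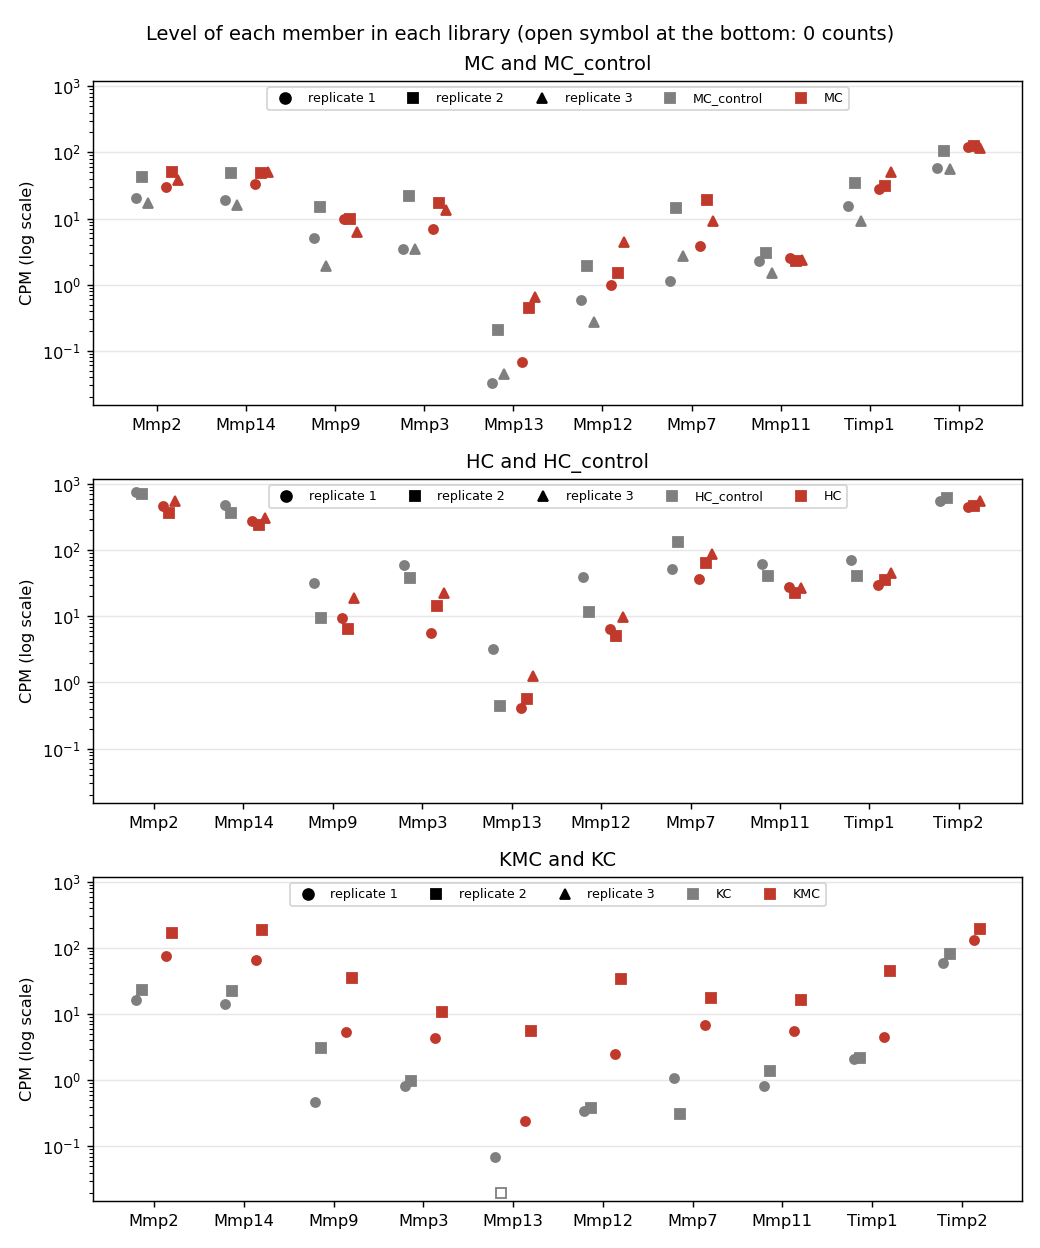
CPM of the 10 genes in each of the 15 libraries on a log axis, with controls in gray, transgenic groups in red and a symbol per replicate; the open symbol at the bottom is 0 counts. KMC libraries sat above KC libraries for all 10 genes, while MC control 2 (gray square, top) was at or above the lowest MC library for 9 of the 10.

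MC and control pancreata were compared to ask what kinase-dead HPK1 changes during cerulein pancreatitis. All 9 members that passed the filter on low counts had a log2 fold change above 0, as values and not as calls, with a median log2 fold change of 0.66 beside -0.02 over 13902 genes, of which 46.9% were above 0. None passed the test (adjusted p 0.262 to 0.938, edgeR), nor did any other gene, a share of 0%, with a smallest adjusted p of 0.0781. Unadjusted p was under 0.05 with MC higher for 1 member and 9.2% of all genes, and DESeq2 called 0 members and 453 genes, or 3.26%.

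Timp2 was the member with no overlap between the groups, which held with MC higher for 10.9% of all genes. It was at 58.0, 105 and 56.4 CPM in MC controls and at 119, 127 and 116 in MC, a log2 fold change of 0.72 (SE 0.24, adjusted p = 0.262 by edgeR). Timp1 was at 15.3, 34.2 and 9.30 CPM in controls and at 28.2, 30.9 and 51.4 in MC, a log2 fold change of 0.90 (SE 0.46). MC control 2 was the high control for both inhibitors, and for Timp1 it lay above 2 of the 3 MC libraries.

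The proteases followed the same layout. Mmp14 was at 18.9, 49.1 and 16.0 CPM in controls and at 33.1, 48.6 and 51.1 in MC, and Mmp2 at 20.1, 42.1 and 17.1 against 29.8, 50.7 and 37.8. Mmp3 was at 3.44, 21.8 and 3.46 CPM in controls and at 6.90, 16.9 and 13.4 in MC, and Mmp7 at 1.12, 14.2 and 2.70 against 3.89, 18.9 and 9.23. In each of these 4 genes, controls 1 and 3 were below all MC libraries. Control 2 lay above all MC libraries for Mmp3 and among them for the other 3. Mmp9 was at 5.12, 15.0 and 1.89 CPM in controls and at 9.73, 9.68 and 6.30 in MC, and Mmp11 was between 1.48 and 3.07 CPM in all 6 libraries (log2 fold change 0.05, SE 0.29).

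Mmp12 was at 0.595, 1.94 and 0.270 CPM in MC controls and at 0.980, 1.53 and 4.39 in MC, a log2 fold change of 1.27 (SE 0.77). Mmp13 did not pass the filter, with 1, 7 and 1 counts in controls and 2, 19 and 26 in MC. Its depth-corrected ratio of 3.99 has a 95% exact counting interval of 1.93 to 9.27, for counting error only, and the libraries overlapped. Without MC control 2, edgeR called 746 genes and 5 members (Mmp2, Mmp3, Mmp14, Timp1 and Timp2), with a median log2 fold change of 1.34 over the 9 members.

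MC control 2 was the highest control for macrophage, neutrophil and fibroblast markers as well, but not for all lists. It was the lowest control for ductal markers (704 CPM against 805 and 784) and mast cell markers (23.8 against 39.0 and 26.0). Summed macrophage markers were at 262, 471 and 220 CPM in controls and at 482 to 736 in MC, with all 7 tested higher. Neutrophil markers were at 23.9, 53.3 and 7.14 CPM in controls and at 24.9 to 42.2 in MC, and all 7 fibroblast markers were higher in MC (210 to 314 CPM in controls, 305 to 414 in MC). Acinar markers took the smallest share of counts among the controls in this library, 41.5%. The T cell and adipocyte lists separated the groups in full. All 6 T cell markers were without overlap (1.66 to 2.53 CPM summed in controls, 6.25 to 8.79 in MC), as were all 4 adipocyte markers (1.06 to 9.16 against 18.7 to 87.0). DESeq2 called 4 T cell and 4 adipocyte markers as higher, beside 3.26% of all genes in both directions, and edgeR called 0. Per 100 fibroblast marker counts, Timp2 was at 27.6, 33.5 and 26.8 in controls and at 29.8, 30.7 and 38.2 in MC. On that scale the groups overlapped for Timp2, as they did for Mmp2, Mmp3, Mmp11, Mmp14 and Timp1. The part of these cells in the members' values was not tested.

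The HC comparison asks what active HPK1 changes under the same treatment, with the reservation that Map4k1 was lower in the libraries labelled HC. As labelled, HC carries Bac-cre and its WT controls do not, so Cre and HPK1 cannot be told apart here. All 10 members had a log2 fold change below 0, as values and not as calls, with a median log2 fold change of -0.76 beside -0.001 over 18407 genes, of which 50.2% were below 0. None passed the edgeR thresholds (adjusted p 0.0855 to 0.641), where edgeR called 104 genes, or 0.565%. Unadjusted p was under 0.05 for 5 members and, with HC lower, for 7.47% of all genes. DESeq2 called Mmp12, and 201 genes as lower in all, or 1.09%. Mmp11, Mmp14 and Mmp2 had DESeq2 adjusted p of 0.000794, 0.0219 and 0.0271 but were under the fold threshold, Mmp11 narrowly (log2 fold change -0.993). The groups did not overlap for 6 members, all lower (Mmp2, Mmp3, Mmp11, Mmp12, Mmp14 and Timp2), as 16.1% of all genes did.

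Mmp11 had the smallest p: it was at 28.0, 22.2 and 27.3 CPM in the libraries labelled HC and at 61.3 and 41.1 in controls, a log2 fold change of -0.99 (SE 0.19, adjusted p = 0.0855 by edgeR). Mmp3 was at 5.70, 14.1 and 22.4 CPM against 60.4 and 37.5 in controls, a log2 fold change of -1.80 (SE 0.51, adjusted p = 0.181). Mmp12 was at 6.43, 5.02 and 9.73 CPM against 39.0 and 11.4, a log2 fold change of -1.83 (SE 0.51, adjusted p = 0.179 by edgeR). In all 3 genes HC control 1 was above HC control 2.

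Mmp2 was at 464, 362 and 560.5 CPM in the libraries labelled HC and at 767 and 701 in controls, a log2 fold change of -0.67 (SE 0.20, adjusted p = 0.199 by edgeR). Mmp14 was at 279, 237 and 309 CPM against 479 and 367, a log2 fold change of -0.62 (SE 0.17). Timp2, close to Mmp2 in level, was at 452, 459.5 and 551 CPM against 559 and 623 in controls. Its log2 fold change of -0.28 (SE 0.15) was again the one closest to 0.

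The other 4 members overlapped. Mmp7 was at 37.2, 63.2 and 88.5 CPM in the libraries labelled HC and at 51.2 and 131 in controls, and Timp1 at 29.4, 35.7 and 45.4 against 70.8 and 41.4. Mmp9 was at 9.45, 6.38 and 18.7 CPM against 32.0 and 9.41, and Mmp13 at 0.413, 0.572 and 1.24 against 3.18 and 0.435. For Mmp9 and Mmp13 the difference rested on HC control 1, without which the log2 fold changes were 0.29 and 0.76. For Mmp7 it rested on HC control 2, without which it was 0.29.

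All 8 macrophage markers were lower in the libraries labelled HC (773 to 1085 CPM, against 1232 and 1854 in controls), as were the 5 tested neutrophil markers (50.8 to 63.2 against 85.7 and 112). Fibroblast markers went both ways, 4 lower and 3 higher. All 7 tested stomach markers were higher (5474 to 7328 CPM against 1464 and 2496), as were all 6 ductal markers (3634 to 4656 against 2318 and 2362). Mmp2 per 100 fibroblast marker counts was at 15.8, 18.6 and 23.2 in the libraries labelled HC and at 29.0 and 25.5 in controls. Mmp3, Mmp11 and Mmp14 were also lower without overlap on that scale, while Timp1 and Timp2 overlapped. The part of the tissue makeup in these values was not tested. HC 3, the library with Xist near 0, was the highest of its group for Mmp2, Mmp3, Mmp7, Mmp9, Mmp12, Mmp13, Mmp14, Timp1 and Timp2, and without it the members' median log2 fold change was -0.96.

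**Figure D3:**
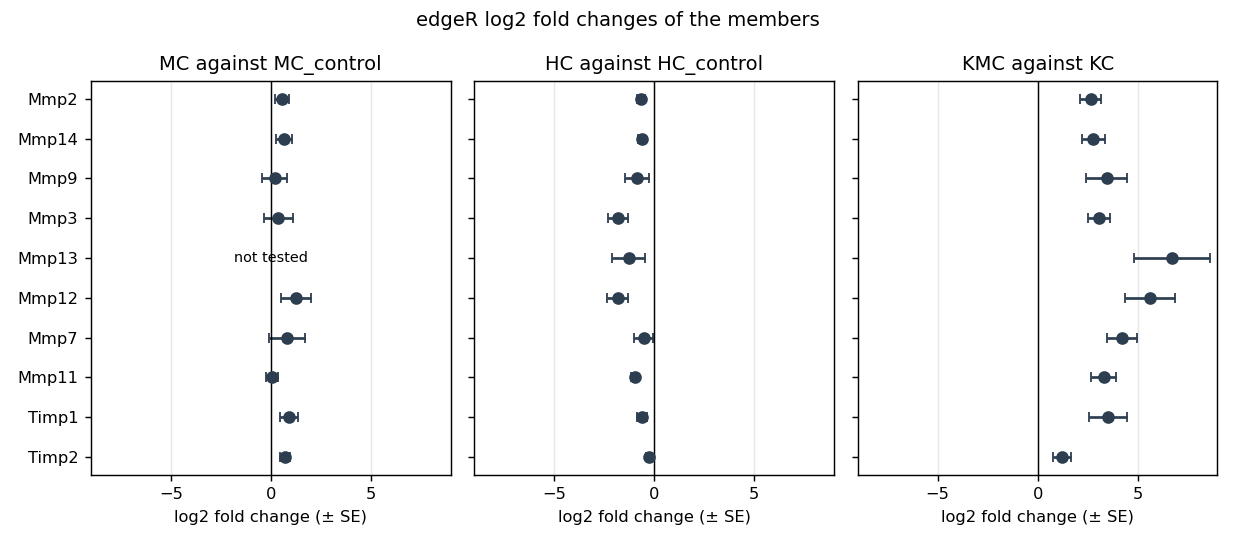
edgeR log2 fold changes of the 10 genes with their standard errors in the 3 comparisons, on the same axis. Every tested member lies right of 0 in MC (0.05 to 1.27) and KMC (1.21 to 6.70) and left of 0 in HC (-1.83 to -0.28), and no member passed the thresholds by edgeR.

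The effects of M46 and HPK1 were compared in 1 fit over the MC and HC tables, as the MC effect minus the HC effect. The difference was above 0 for all 10 members, with a median log2 value of 1.31 beside -0.03 over 14884 genes, of which 47% were above 0. None was called (adjusted p 0.114 to 0.566, edgeR), while edgeR called 325 genes, or 2.18%. Unadjusted p was under 0.05 with a difference above 0 for 7 of the 10 members and for 12.3% of all genes. Timp2 had the smallest p, with a difference of 0.99 (SE 0.32, adjusted p = 0.114 by edgeR), and Mmp13 the highest value, 3.21 (SE 1.37, adjusted p = 0.215). DESeq2 called Mmp12 (edgeR difference 3.08, SE 1.02) and 5.44% of all genes as above 0. Timp2, with a DESeq2 difference of 0.96 and adjusted p of 0.0391, was under the fold threshold. The tables differ in age, library kit, control label (B in MC, WT in HC) and number of control libraries. These cannot be told apart from genotype in this difference. The difference also rests on the HC labels, which Map4k1 went against. Macrophage markers moved the same way as Map4k1 in each table, so its level in whole pancreas cannot decide whether those labels are right. With the HC effect turned, the value was above 0 for 5 of the 10 members and below 0 for Mmp2, Mmp3, Mmp9, Mmp11 (-0.93) and Mmp12, with a median of -0.01 and 0 members called. Without MC control 2 edgeR called 7 members and 1584 of 14884 genes.

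Levels of different genes were set side by side as RPKM, TMM-scaled CPM per kb of exon. In MC controls Timp1 (22.1 RPKM, range 10.5 to 38.5) and Timp2 (18.8, range 14.5 to 27.0) led and overlapped, ahead of Mmp2 (7.84, range 5.08 to 12.5). MC kept that order, with Timp1 at 41.4, Timp2 at 31.0 and Mmp2 at 11.7 RPKM. In HC controls Mmp2 led (218 RPKM, range 208 to 227.5), followed without overlap by Timp2 (152) and then Mmp7 (85.3), Mmp14 (70.9) and Timp1 (63.2). In the libraries labelled HC Mmp2 (137) and Timp2 (125) overlapped, followed by Mmp7 at 58.95. KC was led by Timp2 alone at 18.1 RPKM, with Mmp2 at 5.84 and Timp1 at 2.41. In KMC the ranges of Timp2 (41.9), Mmp2 (36.7), Timp1 (27.9) and Mmp14 (21.0) overlapped from one to the next. Mmp12 and Mmp13 had the lowest means in all 6 groups, at 3.48 RPKM or less. The rank of Mmp12 depends on its exon length of 7237 bases, the longest of the 10. By mean CPM in KMC, Mmp12 (18.1) was above Mmp7 (12.3), Mmp11 (11.1) and Mmp3 (7.57).

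The balance of proteases to inhibitors can be read from the summed RPKM of the 8 Mmp genes over that of the 2 Timp genes. It was 0.526 and 0.543 in KC and 1.19 and 1.26 in KMC, close within each group although KMC 2 had a Mmp total of 127 RPKM and KMC 1 of 46.3. It was 1.91 and 2.09 in HC controls and 1.58, 1.42 and 1.72 in the libraries labelled HC, again without overlap. In the MC table the groups overlapped, at 0.451, 0.791 and 0.534 in controls and 0.412, 0.804 and 0.449 in MC. This balance depended on which genes were summed. Over all listed Mmp genes (23, or 17 in the MC table) and 4 Timp genes, a sum added after the data were seen, it was 1.83 and 1.91 in HC controls and 1.84, 1.77 and 1.87 in the libraries labelled HC, which overlapped. On that sum the MC groups were apart, at 1.16, 1.12 and 1.42 in controls and 0.764, 1.07 and 0.663 in MC, and KC (1.03 and 0.834) stayed below KMC (1.38 and 1.35). Timp2 gave 56.6% and 58.1% of the members' RPKM in KC and 39.6% and 22.0% in KMC.

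Within a library, ratios of protease to partner need no scaling between libraries. The KC libraries had 0.278 and 0.281 Mmp2 counts per Timp2 count, and the KMC libraries had 0.583 and 0.875, a log2 difference of 1.35. Mmp14 counts per Timp2 count were at 0.240 and 0.269 against 0.494 and 0.952, a log2 difference of 1.43. Both missed any threshold by design: with 2 against 2 libraries the exact two-sided permutation test cannot go below p = 0.333, which is the value they gave. For Mmp2 per Timp2 in the libraries labelled HC the ratios were 1.03, 0.787 and 1.02 against 1.37 and 1.13 in controls, a log2 difference of -0.41 (exact permutation p = 0.1, the smallest possible, 0.75 after adjustment over 9 comparisons). Mmp14 per Timp2 overlapped there, at 0.617, 0.516 and 0.561 against 0.856 and 0.589 (exact permutation p = 0.2). In MC the Mmp2 ratio was 0.251, 0.399 and 0.325 against 0.347, 0.400 and 0.304 (exact permutation p = 0.6), and the Mmp14 ratio differed by 0.04 on the log2 scale (exact permutation p = 1). Mmp9 per Timp1 overlapped in all 3 comparisons.

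**Figure D4:**
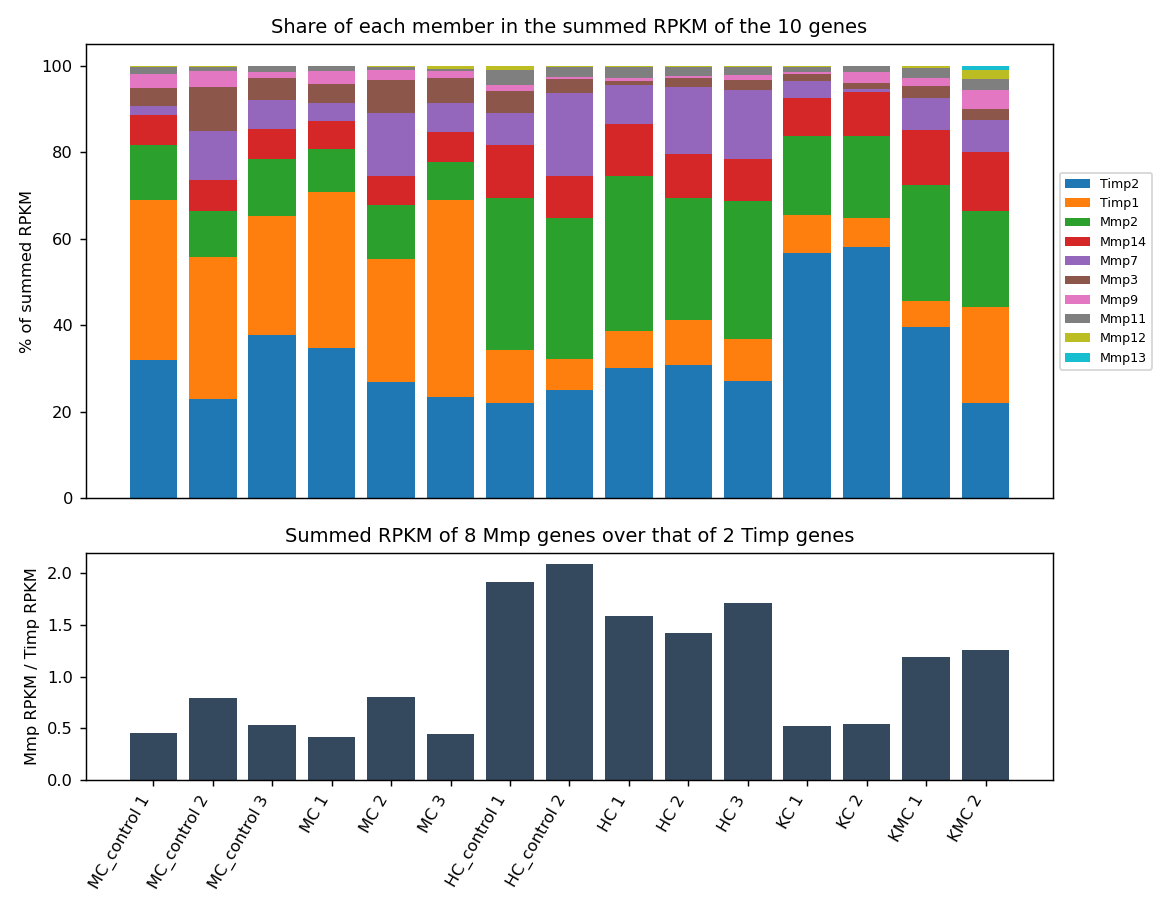
Top, the share of each member in the summed RPKM of the 10 genes, by library, in percent. Bottom, summed Mmp RPKM over summed Timp RPKM by library; KC libraries were at 0.526 and 0.543 and KMC libraries at 1.19 and 1.26, while MC and its controls overlapped.

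**Figure D5:**
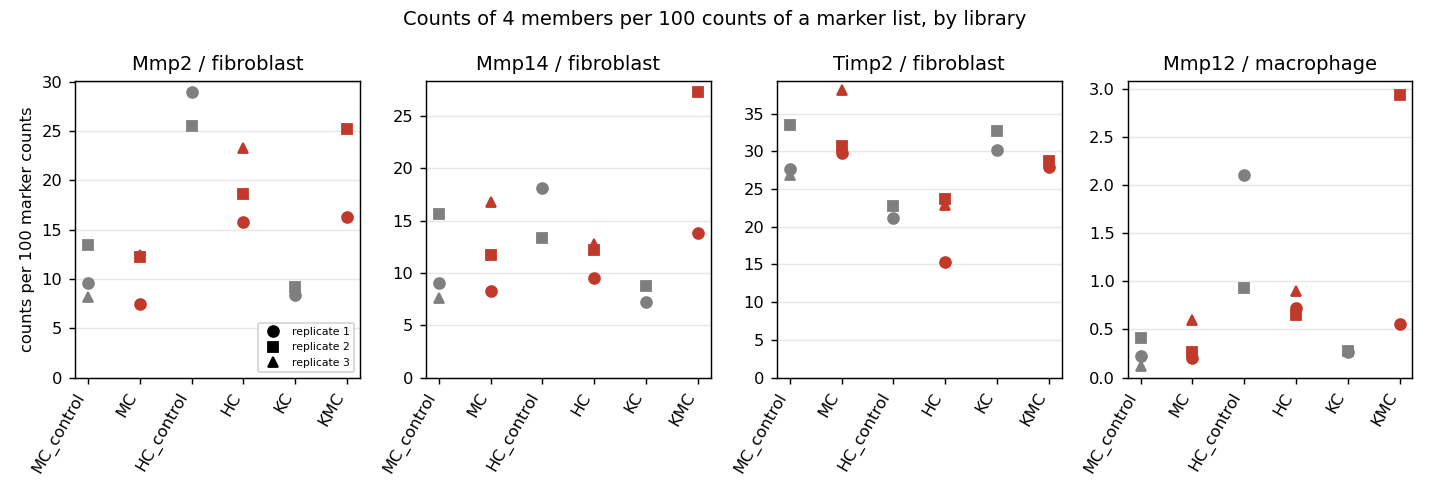
Counts of Mmp2, Mmp14 and Timp2 per 100 fibroblast marker counts and of Mmp12 per 100 macrophage marker counts, 1 point per library, with controls in gray and transgenic groups in red. KMC points were above KC points for Mmp2, Mmp14 and Mmp12 and below them for Timp2 (27.9 and 28.7 against 30.2 and 32.7).

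The remaining Mmp genes did not all go with the members. In the libraries labelled HC, Mmp28, an MMP of epithelia, rose to 48.6, 42.0 and 37.9 CPM from 20.0 and 20.3 in controls, a log2 fold change of 1.09 (SE 0.14, adjusted p = 0.0428 by edgeR), and was the only one of 11 tested other Mmp genes called. Mmp15, a membrane-anchored relative of Mmp14, was at 247, 288 and 267 CPM against 155 and 129, a log2 fold change of 0.92 (SE 0.13, adjusted p = 0.0499 by edgeR), which is under the fold threshold. Stomach and ductal marker sums were higher in the same libraries, as given above. In MC, Mmp15 was at 91.8, 80.1 and 77.4 CPM against 124, 95 and 123 in controls (log2 fold change -0.46, SE 0.15). The difference of its MC and HC effects, -1.39 (SE 0.21, adjusted p = 0.0199 by edgeR), was called, in the opposite direction to all 10 members as labelled. In KMC, 7 of 8 tested other Mmp genes had a log2 fold change above 0. edgeR called 0 of them. Unadjusted p was under 0.05 for 4, beside 16.1% of all genes with KMC higher. DESeq2 called 3 as higher (Mmp19, Mmp23 and Mmp25), beside 9.25% of all genes. Levels were low, with Mmp25, a GPI-anchored MMP of neutrophils, at 0.136 and 0.116 CPM in KC and 1.35 and 2.71 in KMC, and Mmp19 at 2.52 and 3.17 against 7.41 and 20.4.

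Of the other inhibitors, Timp3, which binds to the matrix, was at 391 and 414 CPM in HC controls and at 257, 178 and 286 in the libraries labelled HC (log2 fold change -0.74, SE 0.21, adjusted p = 0.174 by edgeR). It was at 13.7 and 21.0 CPM in KC and at 36.7 and 67.6 in KMC (log2 fold change 1.59, SE 0.43, adjusted p = 0.105 by edgeR). The plasminogen system activates several proMMPs. On a list of its genes and Furin, edgeR called 0 of 7, 8 and 6 tested genes in MC, HC and KMC. Unadjusted p was under 0.05 for 2 as higher in MC, 4 in HC (3 lower, 1 higher) and 4 as higher in KMC. The shares of all genes were 9.2% (MC higher), 7.47% (HC lower) and 16.1% (KMC higher). From the list, DESeq2 called 1 as higher in MC (Serpinb2) and 1 as lower in HC (Serpine2). It called 4 as higher in KMC, Plat and Serpine2 among them. Over all genes DESeq2 called 3.26% in MC (both directions), 1.09% as lower in HC and 9.25% as higher in KMC. Serpine2, an inhibitor of that system, was at 62.3, 31.0 and 52.7 CPM in the libraries labelled HC against 176.5 and 122 in controls, and at 28.8, 35.4 and 31.7 in MC against 13.7, 28.6 and 13.1. The difference of its effects, 2.40 (SE 0.47, adjusted p = 0.0339 by edgeR), was called.

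ADAM and ADAMTS proteases had a log2 fold change above 0 for all 15 tested genes in MC and in KMC and below 0 for 13 of 15 in HC, with medians of 0.43, 2.07 and -0.51. edgeR called 0 in each, with unadjusted p under 0.05 for 3 in MC, 11 in KMC and 10 in HC (9 lower, 1 higher). DESeq2 called 0 in MC, 8 as higher in KMC, among them Adam12 with a log2 fold change of 3.71 (SE 0.74) by edgeR, and 2 as lower in HC (Adam12 and Adamts12). Adamts15 was at a log2 fold change of 2.52 (SE 0.47) in KMC and Adam8 at 2.66 (SE 0.51), both at an adjusted p of 0.0796 by edgeR. The log2 fold changes of the 9 matrix substrates on the list, among them Col1a1, Col3a1, Eln and Fn1, all lay above 0 in MC and KMC and below 0 in HC, with medians of 0.66, 2.36 and -0.54. edgeR called 0, with unadjusted p under 0.05 for 1 in MC, 6 in KMC and 1 in HC, and DESeq2 called 6 in KMC (Col1a1, Col1a2, Col3a1, Eln, Fn1 and Spp1) and 0 in the other two. Of 15 genes that act upstream of Mmp transcription, such as AP-1 subunits, ETS factors and cytokines, 12 of 14 tested had a log2 fold change above 0 in MC and in KMC and 12 of 15 below 0 in HC. edgeR called 0. Unadjusted p was under 0.05 for 2 in MC (1 higher, 1 lower), 10 in KMC (9 higher, 1 lower) and 6 in HC (5 lower, 1 higher). DESeq2 called 0 in MC and HC, and in KMC 7 as higher (Fos, Fosl2, Junb, Etv4, Il1b, Tnf and Tgfb1) and 1 as lower (Jund, log2 fold change -1.10 by edgeR). Fos went against the members in the libraries labelled HC, with a log2 fold change of 0.86 (SE 0.24, adjusted p = 0.175 by edgeR). Beside these lists, unadjusted p was under 0.05 for 9.2% of all genes (MC higher), 16.1% (KMC higher) and 7.47% (HC lower). DESeq2 called 3.26% of all genes in MC (both directions), 9.25% as higher in KMC and 1.09% as lower in HC. The substrate counts in MC and HC and the upstream gene counts in MC lie near the shares for unadjusted p.

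The genes with the most similar pattern were found over all 15 libraries, as the smallest root mean square difference of log2 CPM centered within each table, among 12418 genes. Mmp2 was closest to Adamts15 (0.16 on the log2 scale), Mmp14 (0.16) and the procollagen protease Adamts2 (0.17), beside its own root mean square of 0.82. Mmp14 was closest to Palld (0.12), Sh3pxd2b (0.14), which encodes a podosome scaffold, and the matrix proteoglycan gene Vcan (0.14). Mmp12 was closest to Tnc (0.48), Sfrp2 (0.51) and Col12a1 (0.53), and Mmp11 to Robo1 (0.23). Mmp13 was closest to Fcgr4 (0.57), an Fc receptor, and then to its cluster neighbour Mmp12 (0.58). Mmp7 was closest to Lcn2 (0.62), Mmp9 to Fn1 (0.38) and Mmp3 to Aoah (0.53). Timp1 was closest to the chemokine receptor gene Ccr1 (0.27), and Timp2 to Palm (0.11). The 15 points share the same libraries and marker shifts, and no test was made on these values.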

How the data were processed

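The deposited files were 3 tables of raw gene counts, made by the authors, per the labels' processing notes, with bcl2fastq 2.17.14, STAR 2.6.1a, HTSeq 0.6.1 and DESeq2 on mm10; the counting strand setting is not given in the sources used here. Tables of the authors' own fold changes and p-values were not used. The MC table lists 15175 genes, and each of the others lists 49585. Libraries of the MC table were made with standard Illumina protocols and the others with the KAPA Stranded kit, so levels were compared within tables only. An allele shared by KMC and KC is not reported here.

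Counts were filtered (filterByExpr), TMM-scaled and tested with edgeR 4.0.16 (glmQLFit, glmQLFTest; R 4.3.3), each group against its own control, with Benjamini-Hochberg adjustment over all genes. Called means adjusted p not above 0.05 with a fold of 1 or more, up or down, on the log2 scale. RPKM used GENCODE vM21 exon lengths. DESeq2 1.42.0, other scalings and filters, the replicate block, a single fit and leaving out each library were alternatives. Ratios used counts plus 0.5 and exact permutation tests. Counts were also simulated from the trended dispersion, with 200 genes changed by a log2 value of 2. Of these, edgeR called 99.5% (MC), 98.5% (HC), 53% (KMC) and 94.5% (difference). The simulation left out gene-specific spread and outlying libraries such as MC control 2. These shares are therefore not the share that the real comparisons would call. Replicates of 1 group differed beyond counting noise (chi-square per gene 39.5 to 463).

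The members and lists were chosen with earlier results of these data known. All members, up to 2 genes per other list and comparison with the smallest p, and the 3 genes nearest each member in pattern could be named.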

Additional observations from a re-analysis of the deposited data

Results flagged for a closer look

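Map4k1, the gene of the transgene, differed between the experiments: its MC effect minus its HC effect was 2.11 on the log2 scale (SE 0.35, adjusted p = 0.0262 by edgeR), because it was higher in MC than in its controls (log2 fold change 1.13, SE 0.24) and lower in the libraries labelled HC than in theirs (-0.99, SE 0.25). The direction of every HC value above rests on those labels. Summed macrophage markers moved the same way as Map4k1, from 220 to 471 CPM in MC controls to 482 to 736 in MC. In the HC table they were at 1232 and 1854 CPM in controls and at 773 to 1085 in the libraries labelled HC. Map4k1 in whole pancreas therefore cannot decide whether the labels are right, and the part of immune cells in it was not tested.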

How the results depend on the processing

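Main counts of called members were 0 in all 4 comparisons. For KMC they became 10 by DESeq2, by library size alone, by library size without acinar genes and in 1 fit of all 15 libraries, and 9 with the replicate block; leaving out 1 library gave 0 to 9. For HC they became 1 by DESeq2 (Mmp12) and 2 without a filter (Mmp3, Mmp12), and for the difference of effects 1 by DESeq2. Over all genes these settings called 468 and 395 in HC and 1005 in the difference. In KMC, 2159 genes were called by DESeq2, 4715 by library size alone, 1928 by library size without acinar genes and 3609 in 1 fit. Leaving out 1 library gave 0 to 5 called members in MC (5 without MC control 2) and 0 to 7 in the difference. Members above 0 in HC were 0 to 2 (2 without HC control 1, 1 without HC control 2). Genes called over all settings ranged from 0 to 746 in MC, 0 to 468 in HC, 0 to 4715 in KMC and 0 to 1584 in the difference; in KMC, 1 of 3 calls was higher in the main scaling and 4695 of 4715 by library size alone.

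Without 1 library, log2 fold changes that crossed 0 ranged over -0.021 to 1.85 for Mmp3, -0.22 to 1.27 for Mmp9, -0.16 to 0.32 for Mmp11 in MC, -1.06 to 0.29 for Mmp7, -1.48 to 0.29 for Mmp9, -2.11 to 0.76 for Mmp13 in HC, -0.077 to 2.10 for Mmp9 in the difference. Log2 ratio differences that crossed 0 ranged over -0.12 to 0.24 for Mmp14/Timp2 in MC, -0.29 to 0.049 for Mmp2/Timp2 in MC, -0.70 to 0.079 for Mmp9/Timp1 in MC, -0.65 to 0.34 for Mmp9/Timp1 in HC, -0.55 to 2.02 for Mmp9/Timp1 in KMC. The cause was not tested, and of the settings that kept all libraries the only one to reverse a member or ratio was the HC effect turned, added after seeing the data because Map4k1 went against the HC label. With it, members above 0 in the difference were 5, the values were -0.081 for Mmp2, -1.42 for Mmp3, -0.62 for Mmp9, -0.93 for Mmp11 and -0.57 for Mmp12, and 16 genes were called.

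Correlations of same-numbered deviations were 0.07, 0.30 and -0.30 in MC, 0.19 and 0.17 in HC and 0.05 in KMC. In a group of 2 libraries the deviations mirror each other. The HC and KMC values therefore cannot decide whether replicate numbers pair the samples. In KMC the replicate block also leaves little from which to measure the spread between pools. With the replicate block, edgeR called 0 members and 0 genes in MC, 2 members (Mmp11, Mmp12) and 339 genes in HC, where HC 3 has no partner and does not inform the effect, 9 members and 2469 genes in KMC, and 0 members and 0 genes in the difference. In MC, 1 of 3 libraries correlated best with its own number. Depth limits Mmp13, at 26 counts or fewer in every MC-table library and 0 or 1 in KC.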

Other observations

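Genes related to the members were detected in some libraries alone. Mmp10, a stromelysin of the same cluster, had 148 counts in KMC 2 and 0 counts in KMC 1 and both KC libraries. A2m, a broad protease inhibitor, had 103 and 1437 counts in KMC and 0 in both KC libraries, which allows up to 0.204 and 0.116 CPM there; it was at 22.9 and 19.5 CPM in HC controls and 6.46, 4.38 and 13.98 in the libraries labelled HC. Serpinb2, an inhibitor of plasminogen activators, was at 0.364, 0.357 and 0.0898 CPM in MC controls and 5.95, 1.81 and 0.691 in MC (log2 fold change 3.29, SE 0.87, adjusted p = 0.178 by edgeR), and DESeq2 called it. B cell markers were higher in MC, with all 4 tested above 0 on the log2 scale and sums of 0.898 to 1.82 CPM in controls and 2.37 to 52.7 in MC.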
